A study of Mus musculus with 4 samples.

Results

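The genes described are 10 that mark endothelium, the cells that line blood vessels: the VEGF receptor genes Kdr and Flt1, the angiopoietin receptor gene Tek and its relative Tie1, the surface genes Cdh5, Pecam1, Emcn, Clec14a and Robo4, and the transcription factor gene Sox18. They were chosen by name as known endothelial genes, and every probe whose accession maps to one of them was taken: 13 of 41174 probes, for 10 of the 18220 genes that could be named. The RNA was from mouse embryos of embryonic day 9.5, posterior part only, of 2 genotypes out of crosses between Jmjd3+/- parents: Jmjd3-/- (replicates 1 and 9 of the labels, called mutant 1 and mutant 9) and wild-type (replicates 3 and 4, called wild-type 3 and wild-type 4). The labels give no other allele or treatment, and they do not say whether an RNA sample came from 1 embryo or several, so a p-value here reflects no more than the spread among these 4 samples, which may be technical. Each sample was hybridised to 1 single-colour Agilent array. Signals are given as the scanner's processed intensity, in arbitrary units, or as normalised log2 signal, which is the log2 intensity less the 75th percentile of its array. Levels of different genes cannot be compared on this scale, since each probe binds with its own strength, and the values below compare arrays within a gene.

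Vessels of the embryo form from mesodermal precursors under VEGF, a secreted ligand that acts through the receptor tyrosine kinase encoded by Kdr. Flt1 encodes a related receptor that binds VEGF with high affinity and gives little signal, so that it acts largely as a decoy. The Tie receptors encoded by Tek and Tie1 act later, in the remodelling and stability of vessels, with angiopoietins as the ligands of Tek. Cdh5 encodes VE-cadherin, the adhesion molecule of endothelial junctions, and Jmjd3 (now Kdm6b) encodes a demethylase that removes the repressive trimethyl mark from lysine 27 of histone H3.

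All 10 genes had a probe well above background on all 4 arrays, so transcripts of endothelium were present in every sample. The arrays had between 59.8% and 63.0% of probes well above background, and 0 spots were saturated. The Jmjd3-/- arrays lay further from each other than the wild-type arrays did, with a median gap over 13582 tested genes of 0.16 against 0.076 on the log2 scale. Kdm6b itself had processed signals of 769.6 and 622 in mutants 1 and 9 and of 2648 and 2940 in wild-types 3 and 4. Its difference was −1.96 on the log2 scale (Jmjd3-/- minus wild-type, SE 0.12), or 25.7% of wild-type. It did not pass an adjusted p under 0.05 (adjusted p = 0.149, limma with Benjamini-Hochberg adjustment), so a difference of this size can fail to pass with 4 arrays. The sources used here do not say whether the Kdm6b probe lies in the deleted part of the gene, and a probe outside it would not check the labels. Of 12 genes of the posterior axis (Cdx2 and Tbx6 among them) all 12 were well above background in at least 1 genotype, whereas of 10 head genes 4 were, 5 were not and the other one has no named probe here. In 2 against 2 samples an exact two-sided permutation test cannot give a p below 0.333, so single values rest on the fit over all genes.

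Promoter sequences are shown for the 2 genes with the largest differences, Emcn and Clec14a, and for the VEGF receptor pair, in which the Jmjd3-/- samples stood apart from each other. They run from 250 bases before to 50 bases after the RefSeq start in build GRCm38.p6, and 7 of the 10 genes had an entry (Kdr, Flt1, Tek, Tie1, Emcn, Clec14a and Robo4). The Emcn window is chr3:137340828-137341127 on the plus strand, Clec14a chr12:58269209-58269508, Kdr chr5:75978406-75978705 and Flt1 chr5:147725962-147726261, all 3 on the minus strand. Capitals mark matches, on either strand, to CGGAAG or AGGAAG, forms of the site bound by ETS factors, which are known regulators of endothelial genes.
Emcn: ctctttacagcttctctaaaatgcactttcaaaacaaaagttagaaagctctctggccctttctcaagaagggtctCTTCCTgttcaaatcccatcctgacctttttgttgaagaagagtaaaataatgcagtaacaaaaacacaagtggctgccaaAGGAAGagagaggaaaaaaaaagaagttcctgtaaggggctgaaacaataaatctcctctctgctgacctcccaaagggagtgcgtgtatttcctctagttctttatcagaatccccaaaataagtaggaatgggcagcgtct
Clec14a: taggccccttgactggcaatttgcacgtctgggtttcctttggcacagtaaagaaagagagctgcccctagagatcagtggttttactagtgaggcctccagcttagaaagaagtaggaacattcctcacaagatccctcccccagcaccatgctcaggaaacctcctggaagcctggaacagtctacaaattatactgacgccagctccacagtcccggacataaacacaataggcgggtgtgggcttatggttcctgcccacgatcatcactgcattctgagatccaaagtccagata
Kdr: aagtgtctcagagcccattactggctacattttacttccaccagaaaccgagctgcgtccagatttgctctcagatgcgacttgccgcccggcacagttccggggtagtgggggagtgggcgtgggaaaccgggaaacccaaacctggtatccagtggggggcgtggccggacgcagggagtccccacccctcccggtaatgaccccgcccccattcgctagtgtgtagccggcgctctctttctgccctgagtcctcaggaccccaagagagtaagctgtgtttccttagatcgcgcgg
Flt1: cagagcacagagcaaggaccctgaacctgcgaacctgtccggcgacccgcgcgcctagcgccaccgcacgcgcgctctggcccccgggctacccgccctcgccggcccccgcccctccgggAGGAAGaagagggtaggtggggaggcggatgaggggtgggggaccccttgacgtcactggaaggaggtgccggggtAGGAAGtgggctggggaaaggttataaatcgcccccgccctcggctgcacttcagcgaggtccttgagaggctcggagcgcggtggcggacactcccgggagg
AGGAAG was found in 4 of the 7 windows (Emcn, Flt1, Robo4 and Tie1) and in 35.4% of all 32851 windows of that length, and CGGAAG in 1 of 7 (Tie1) and in 16.9% of all. The motifs overlap in their last 5 letters, and 46.5% of all windows held at least 1 of them. The SOX motif ACAAAG occurred in 1 of the 7 (Tek; 18.7% of all), the SOX motif ACAATG in 0 (12.6% of all) and the GATA motif AGATAA in 1 (Tek; 11.2% of all). These matches describe letters in a window and were not tied to the array values.

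The comparison of the genotypes asks whether transcripts of vessels differ in amount between Jmjd3-/- and wild-type tissue. Clec14a and Emcn had the largest differences, at 66.5% and 73.8% of the wild-type mean, and Sox18 and Pecam1 lay below both wild-type arrays by less. The VEGF receptor genes, the Tie genes, Cdh5 and Robo4 overlapped between the genotypes. None of the 10 genes passed an adjusted p under 0.05 (limma with Benjamini-Hochberg adjustment), where 0.0368% of all tested genes did, and 3 had an unadjusted p under 0.05, each lower in Jmjd3-/-, where 5.93% of all tested genes were lower at that level. Both Jmjd3-/- arrays lay below both wild-type arrays in 4 of the 10, against 23.7% of all tested genes, and in 0 of the 10 did both lie above, against 23% of all. In bulk tissue, fewer endothelial cells and less RNA per endothelial cell cannot be told apart.

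**Figure D1:**
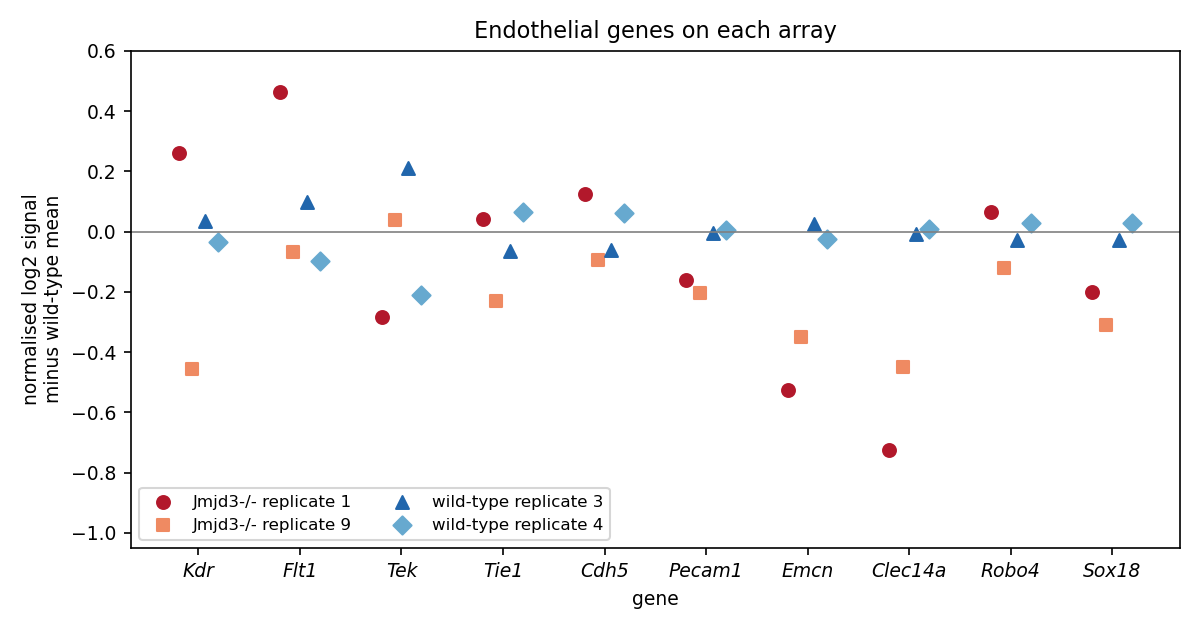
Normalised log2 signal of each of the 10 genes on the 4 arrays, with the wild-type mean of that gene set to 0 (x axis: gene; 1 marker per array, no error bars). Both Jmjd3-/- markers lie below both wild-type markers for Pecam1, Emcn, Clec14a and Sox18, while for Kdr they lie on opposite sides, at 0.26 and −0.46.

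Kdr encodes the main signalling receptor for VEGF, and its probe A_51_P316553 was printed 10 times on every array. Its geometric mean processed signal was 1445 and 841 in mutants 1 and 9 and 1226 and 1222 in wild-types 3 and 4. Mutant 1 was thus the highest array, mutant 9 the lowest, and the wild-type arrays lay between them. The 10 spots ran from 1320 to 1556 in mutant 1 and from 782 to 894 in mutant 9, against 1128 to 1308 and 1147 to 1304 in the wild-type arrays, so no spot of either Jmjd3-/- array fell in the wild-type range. The SD between spots of 1 array was 0.057 to 0.085 on the log2 scale, while the Jmjd3-/- arrays were 0.72 apart, a gap that 6.80% of all tested genes exceeded. The wild-type arrays were 0.072 apart. The spread within an array was therefore small beside the distance between the Jmjd3-/- samples. The genotype difference was −0.10 on the log2 scale (SE 0.27, n = 2 per genotype), or 93.5% of wild-type with a 95% interval from 54.8% to 159.5% (limma adjusted p = 0.916). These data therefore do not bound the Kdr difference closely, and its sign depended on the sample: the difference was −0.46 without mutant 1 and 0.26 without mutant 9.

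Flt1, the decoy-like VEGF receptor, had 2 probes that gave the same order of arrays at the top. The brighter one read 1443 and 958 in mutants 1 and 9 and 1112 and 1019 in wild-types 3 and 4. The dimmer one, A_52_P520859, read 293.7 and 194 against 233 and 200.5. After normalisation mutant 1 was the highest array with both probes, by 0.53 over mutant 9 with the brighter one, and mutant 9 lay between the wild-type arrays. The difference was 0.20 on the log2 scale with either probe (SE 0.22 for the brighter, adjusted p = 0.764, limma), with a 95% interval from 74.9% to 175.5% of wild-type. It was 0.46 without mutant 9 and −0.067 without mutant 1.

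Tek and Tie1 encode the Tie receptors. Tek read 241 and 289.6 in mutants 1 and 9 and 338 and 264 in wild-types 3 and 4. The groups overlapped, and the wild-type arrays were further apart (0.42 on the log2 scale) than the Jmjd3-/- arrays (0.32). Its difference was −0.12 (SE 0.21, adjusted p = 0.855, limma). It was 0.039 without mutant 1 and 0.088 without wild-type 3. Tie1 read 169 and 134 against 156 and 179, with mutant 9 the lowest array. Its difference was −0.095 (SE 0.13, adjusted p = 0.811, limma), with an interval from 72.5% to 120.8% of wild-type, and 0.040 without mutant 9. The intervals of both genes include no difference.

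Cdh5, the VE-cadherin gene, read 1264 and 1041 in mutants 1 and 9 and 1103 and 1257 in wild-types 3 and 4 with its brighter probe. The difference of 0.016 (SE 0.11, adjusted p = 0.970, limma) corresponds to 101.1% of wild-type, with an interval from 80.6% to 126.7%. Its dimmer probe, A_51_P309056, read 160.2 and 136 against 169 and 178, so that both Jmjd3-/- arrays lay below both wild-type arrays there, at −0.18 (SE 0.12). The probes of Cdh5 thus gave no common sign, averaging them gave −0.081, and the brighter probe gave −0.0016 with the median of each array as the scale. The difference with the brighter probe was −0.093 without mutant 1, 0.12 without mutant 9 and −0.045 without wild-type 3. Robo4, which encodes a roundabout-family receptor of endothelium, read 1544 and 1298 against 1435 and 1564, or 1.36 and 1.17 against 1.26 and 1.32 after normalisation. Its difference was −0.028 (SE 0.10, adjusted p = 0.936, limma), with an interval from 80.4% to 119.5% of wild-type. For Cdh5 and Robo4 a difference of 1.5-fold in either direction lies outside the interval.

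Pecam1 encodes CD31, an adhesion molecule of endothelium that platelets and some leukocytes also carry, and it lies on chromosome 11, as Kdm6b does. Its probe, too, was printed 10 times, and the geometric mean signal was 108.6 and 101.1 in mutants 1 and 9 and 120.3 and 126.7 in wild-types 3 and 4. Both Jmjd3-/- means lay below both wild-type means, although single spots overlapped: they ran from 94.5 to 117.9 and from 93.5 to 110.5 in Jmjd3-/- and from 103.6 to 132 and from 118.7 to 136 in wild-type. The Jmjd3-/- arrays were 0.041 apart and the wild-type arrays 0.0074, and the SD between spots of an array was 0.063 to 0.10. The difference was −0.18 (SE 0.072), or 88.1% of wild-type with an interval from 76.4% to 101.6%, and did not pass (adjusted p = 0.480, limma). With normexp, a background correction added once the files were known, it was −0.12.

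**Figure D2:**
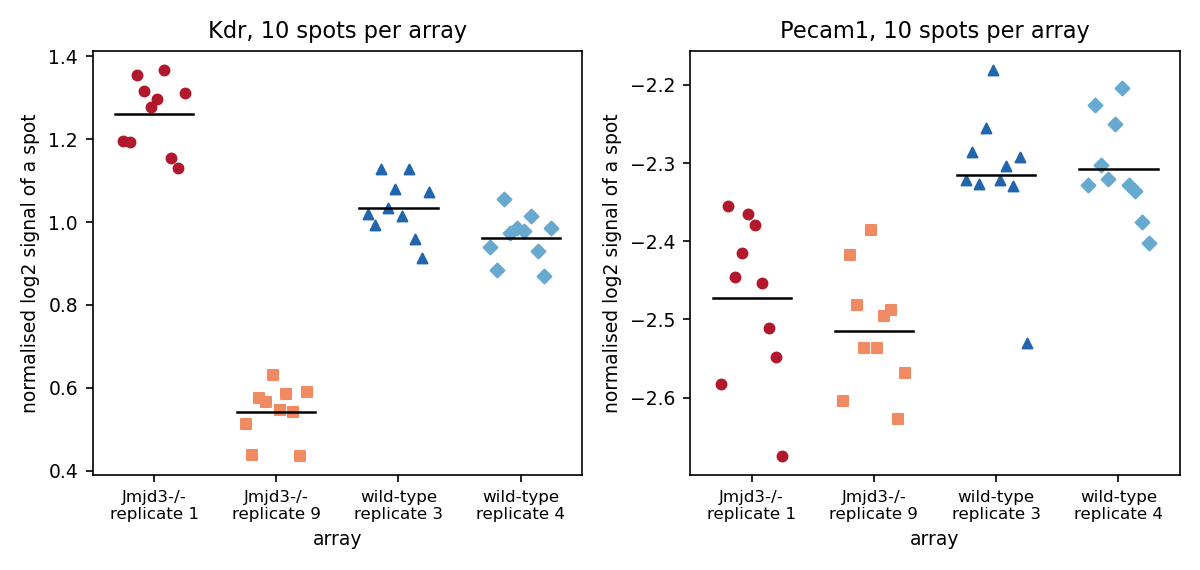
Normalised log2 signal of each of the 10 repeat spots of the Kdr probe (left) and the Pecam1 probe (right) on each array; points are spots and the line is their mean. For Kdr the Jmjd3-/- arrays sit above and below the wild-type arrays, with means of 1.26 and 0.54 against 1.03 and 0.96, whereas for Pecam1 both sit below, at −2.47 and −2.51 against −2.31 and −2.31.

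Emcn encodes endomucin, a sialomucin of venous and capillary endothelium. It read 3000.5 and 3244 in mutants 1 and 9 and 4358 and 4416 in wild-types 3 and 4. The Jmjd3-/- arrays were both below the wild-type arrays, which differed from each other by 0.048 on the log2 scale. The difference was −0.44 (SE 0.097), or 73.8% of wild-type with an interval from 61.0% to 89.3%. It did not pass over all genes (adjusted p = 0.335, unadjusted p = 0.0119, limma), and 12.4% of all tested genes had a larger difference in either direction.

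Clec14a encodes a C-type lectin of the endothelial surface. Its probe A_52_P566665 read 54.9 and 63.7 in mutants 1 and 9 and 89.5 and 95.1 in wild-types 3 and 4, well above background on all 4 arrays but dim. The Jmjd3-/- arrays were again both below, and the wild-type arrays were 0.020 apart. The difference was −0.59 (SE 0.12), or 66.5% of wild-type with an interval from 52.3% to 84.7% (adjusted p = 0.335, unadjusted p = 0.00989, limma). A second probe, A_51_P155977, was not well above background on any array and has no usable value. The size depended on how so dim a probe was corrected, since normexp gave −0.35, and averaging with the unusable second probe gave −0.20. Over all alternatives the adjusted p of Clec14a ranged from 0.0643 (without mutant 9) to 0.958 (without wild-type 3).

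Sox18 encodes a SOX factor of developing blood and lymphatic vessels. It read 1002 and 889.9 in mutants 1 and 9 and 1120 and 1220.4 in wild-types 3 and 4, with no overlap between the genotypes. The difference was −0.25 (SE 0.083), or 83.8% of wild-type with an interval from 71.1% to 98.8%, and it did not pass (adjusted p = 0.427, unadjusted p = 0.0408, limma).

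**Figure D3:**
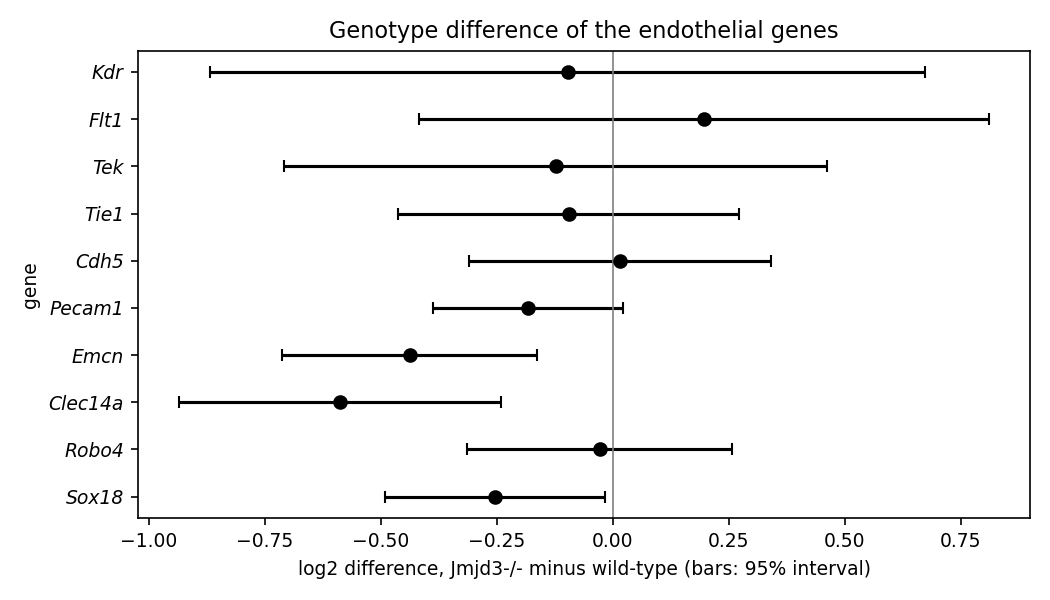
Log2 difference of each of the 10 genes, Jmjd3-/- minus wild-type (points), with the 95% interval of the limma fit, not adjusted for the number of genes (bars; n = 2 per genotype). The intervals of Emcn, Clec14a and Sox18 lie below 0, at most −0.16, −0.24 and −0.018, and those of the other genes include 0.

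As a list, 8 of the 10 genes had a negative difference, against 53.1% of all tested genes, and their median was −0.11, against −0.012 for all tested genes. The number with a negative difference depended on the sample: it was 9 without mutant 1 and 5 without mutant 9. The median against the wild-type mean was −0.061 in mutant 1 and −0.22 in mutant 9, and −0.0067 and 0.0067 in the wild-type arrays. The list was therefore lowest in mutant 9, although Emcn and Clec14a were lowest in mutant 1. Without mutant 1, 8 of the 10 genes had mutant 9 below both wild-type arrays, against 34.1% of all genes tested then, and the median was −0.22. Without mutant 9, 5 of the 10 genes had mutant 1 below both wild-type arrays, against 47.2% of all genes tested then, and the median was −0.061. The genes that overlapped between genotypes included 3 (Kdr, Cdh5 and Robo4) with mutant 1 above and mutant 9 below both wild-type arrays, a pattern noticed in the values that 7.52% of all tested genes showed.

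The members also differed relative to each other. After the median of the 10 genes was subtracted from each array, the difference of Clec14a was −0.45 and that of Emcn −0.30, while those of Flt1, Cdh5 and Robo4 were 0.34, 0.15 and 0.11. Sox18 was at −0.12, and Kdr, Tek, Tie1 and Pecam1 lay within 0.044 of the median of the 10. Such values show unequal differences within the list and do not show which gene stayed the same.

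The rest of the vascular programme was described by 88 further genes in 4 lists, of which 84 were tested and 0 passed, against 0.0368% of all tested genes (limma). At an unadjusted p under 0.05, 12 of the 84 were lower and 5 higher, against 5.93% and 5.15% of all tested genes. Their median difference was −0.083, and it was −0.15 without mutant 1 and −0.016 without mutant 9.

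Of 33 other receptors and surface genes tested, 24 had a negative difference and 9 a positive one, with a median of −0.18 (−0.11 without wild-type 4). In 19 (57.6%) both Jmjd3-/- arrays lay below both wild-type arrays, against 23.7% of all tested genes. In 6 (18.2%), Notch1 and Notch4 among them, both lay above, against 23.0% of all. Cldn5, which encodes a claudin of endothelial tight junctions, had normalised log2 signals of 1.45 and 1.75 in mutants 1 and 9 and of 2.05 and 2.27 in wild-types 3 and 4. Its difference was −0.56 (SE 0.15, adjusted p = 0.383, limma). Efnb2, the ephrin ligand gene of arteries, had 1.12 and 1.04 against 1.46 and 1.32, a difference of −0.30 (SE 0.092, adjusted p = 0.405). Ramp2, a subunit of the adrenomedullin receptor, had 3.43 and 3.47 against 3.68 and 3.71, a difference of −0.24 (SE 0.073, adjusted p = 0.406). In each of these 3 genes the genotypes did not overlap, and no difference passed. They were named for the smallest p of the list, a choice that favours genes without overlap.

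The partners of the VEGF receptors did not share 1 pattern. Flt4, the receptor for VEGF-C, differed by −0.14 (SE 0.17), and the co-receptor genes Nrp1 and Nrp2 by −0.31 (SE 0.17) and 0.091 (SE 0.083). Ptprb, which encodes the endothelial phosphatase that opposes Tie receptors, had −0.11 and −1.44 in mutants 1 and 9 and −1.001 and −1.07 in the wild-type arrays. Like Kdr, Ptprb was highest in mutant 1 and lowest in mutant 9, and its difference of 0.26 had an SE of 0.49. The smallest adjusted p among these 4 genes was 0.566 (limma).

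Ligand genes, most of them made outside the endothelium, had a median of 0.067 over 15 tested (0.15 with the filter set to all 4 arrays and 0.032 with the mean of the probes of a gene), with 4 (26.7%) below and 5 (33.3%) above in both Jmjd3-/- arrays, against 23.7% and 23.0% of all tested genes. Vegfa, the main ligand of Kdr, had 0.99 and 0.78 in mutants 1 and 9 against 0.61 and 0.74 in wild-type, a difference of 0.21 (SE 0.11, adjusted p = 0.566, limma). Vegfb and Vegfc differed by 0.15 (SE 0.077) and 0.21 (SE 0.15), and Pgf by −0.092 (SE 0.16). Both Jmjd3-/- arrays thus lay above both wild-type arrays for Vegfa and Vegfb, and the arrays overlapped for Vegfc and Pgf. Vegfd, a VEGF-family ligand, had −2.45 and −1.56 against −0.75 and −0.75, a difference of −1.26 (SE 0.33, adjusted p = 0.366). Its Jmjd3-/- arrays both lay below wild-type but were 0.89 apart.

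The angiopoietin genes are the ligands of Tek. Angpt1, the activating ligand, differed by −0.51 (SE 0.21, adjusted p = 0.492, limma) and was well above background on 1 of the 2 Jmjd3-/- arrays. Angpt2 differed by −0.058 (SE 0.17, adjusted p = 0.921) and Angpt4 by 0.23 (SE 0.78, adjusted p = 0.933). Gdf2, which encodes a BMP ligand of the endothelial receptor Acvrl1, was well above background on both wild-type arrays and on neither Jmjd3-/- array. Its wild-type signal was 2.90-fold above the lowest signal of any probe that counts as above background on the Jmjd3-/- arrays. The limit for the Gdf2 probe itself may be higher, so 2.90 is not a strict lower bound of the fold. Gdf2 was tested only through the wild-type arrays, and it is 1 of the 4 ligand genes counted as below (adjusted p = 0.224 for the fitted difference, limma). Adm, the adrenomedullin gene, differed by −0.67 (SE 0.13, adjusted p = 0.330).

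Endothelial transcription factor genes had a median of 0.0097 over 20 tested (−0.12 without mutant 1, 0.12 without mutant 9 and −0.0075 with the median of each array as the scale), with 7 (35%) below and 5 (25%) above in both Jmjd3-/- arrays, against 23.7% and 23.0% of all tested genes. Elk3, an ETS factor gene, had 2.60 and 2.46 in mutants 1 and 9 against 2.95 and 2.94 in wild-type, a difference of −0.42 (SE 0.087, adjusted p = 0.335, limma). Mef2c, a MADS-box factor gene also used in muscle and heart, differed by −0.73 (SE 0.18, adjusted p = 0.361), and Foxc1, a forkhead factor gene also used in paraxial mesoderm, by 0.40 (SE 0.11, adjusted p = 0.366). The list held differences of both signs. Erg, Prox1 and Tal1 were not tested.

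Intracellular and secreted genes had a median of −0.050 over 16 tested (−0.14 without mutant 1 and 0.0038 without mutant 9), with 4 (25%) below and 4 (25%) above in both Jmjd3-/- arrays, close to the 23.7% and 23.0% of all tested genes. Myct1, a gene expressed in endothelium, had −2.50 and −2.63 in mutants 1 and 9 against −2.09 and −1.95 in wild-type, a difference of −0.54 (SE 0.10, adjusted p = 0.329, limma). Col4a1 and Col4a2, which encode the basement membrane collagen that many tissues make, differed by 0.22 (SE 0.10, adjusted p = 0.523) and 0.24 (SE 0.086, adjusted p = 0.448).

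**Figure D4:**
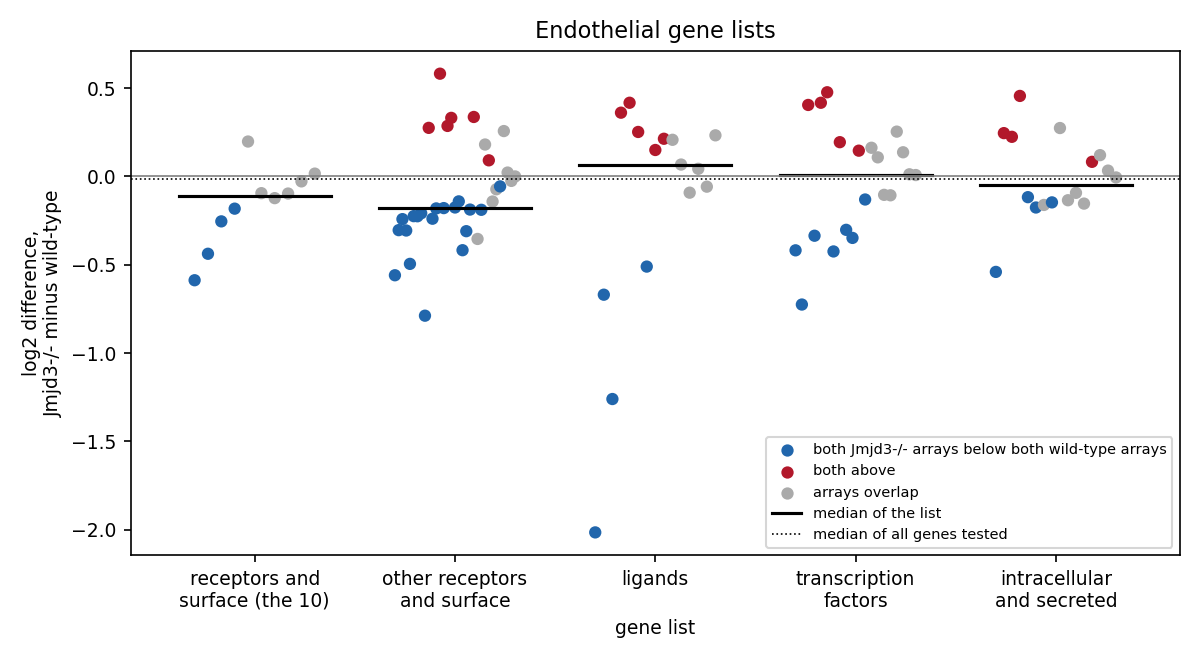
Log2 difference, Jmjd3-/- minus wild-type, of every tested gene of the 10 receptors and surface genes and of the 4 further lists (points, ordered by p within a list; solid lines: list medians; dotted line: median of all tested genes). Medians are −0.11, −0.18, 0.067, 0.0097 and −0.050, and the lowest ligand gene, Gdf2, was below background in both Jmjd3-/- samples, so its plotted value is no measured fold.

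Markers of other cell types also differed in median between the genotypes, with 0 genes of these lists past the threshold. Primitive erythroid genes had a median of −0.36 over 15 of 15 tested, and their summed signal, in multiples of each array's 75th percentile, was 369 and 521 in mutants 1 and 9 and 564 and 719 in the wild-type arrays. Hbb-bh1, the brightest of the 15, weighed most in these sums. By median, mutant 9 (−0.18) lay between wild-type 3 (−0.25) and wild-type 4 (0.25). In 6 of the 15 (40%) both Jmjd3-/- arrays lay below both wild-type arrays, against 23.7% of all tested genes. Platelet, macrophage and blood progenitor genes, which include carriers of Pecam1, had a median of −0.40 over 9 of 15 tested, with summed signals of 1.40 and 1.63 against 2.30 and 3.81. The platelet gene Pf4 was the brightest of the 9 on every array and weighed most in these sums. Its normalised log2 signals were −1.29 and −0.68 in mutants 1 and 9 against 0.28 and 1.29 in wild-types 3 and 4. The list was mixed, with 7 negative differences and 2 positive ones, Csf1r at 0.80 (SE 0.58) and Runx1 at 0.12 (SE 0.12). Tyrobp, 1 of the 7, was well above background on neither Jmjd3-/- array. The markers Cx3cr1, Adgre1, Ptprc, Spi1 and Lyz2 of this list were not well above background on both arrays of either genotype. Mural and smooth muscle genes had a median of −0.37 over 10 of 11, with sums of 35.6 and 51.1 against 57.5 and 47.8, so their ranges overlapped. Cardiac and endocardial genes had −0.57 over 10 of 10, with sums of 4.70 and 6.80 against 13.0 and 8.91, and posterior axis genes 0.83 over 12 of 12. The 4 tested head genes had a median of −0.66, at −1.43 in mutant 1 and 0.041 in mutant 9, with sums of 0.727 and 1.79 against 3.31 and 3.87. Of these, Lhx2, a LIM homeobox factor gene named after its values were seen, was at 16.9% of wild-type (log2 difference −2.57, SE 0.74, adjusted p = 0.391, limma). Lhx2 was the brightest of the 4 on the wild-type arrays, at normalised log2 signals of 1.35 and 1.61, and weighed most in the wild-type sums. No other head gene had both Jmjd3-/- arrays below both wild-type arrays. In each of these lists mutant 1 lay further from wild-type by median than mutant 9, for example at −0.56 for erythroid, −0.68 for cardiac and 1.02 for posterior axis genes, whereas the 10 endothelial genes were further in mutant 9. The part of cell composition or stage in the endothelial values was not tested.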

How the data were processed

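Genotypes and replicate numbers came from the sample labels. The deposited scanner files hold the processed intensity of each spot, corrected for background and spatial trend by Agilent Feature Extraction 10.7.3.1, as the submitters' processing notes and the file headers give it. The authors' deposited series table holds log2 values whose scale no label states. It matched the normalised values centred on the wild-type mean, with r from 0.995 to 0.997 and between 99.883% and 99.905% of probes within 0.01 (column medians −0.021, 0.055, 0.020 and −0.020 for Jmjd3-/- 1 and 9 and wild-type 3 and 4), and served as an alternative.

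After 1639 of 45018 spots were left out as controls, log2 signals were averaged over spots of a probe, less the 75th percentile per array. Accessions were named through the RefSeq table of GRCm38.p6, used only for names and chromosomes since the files name mm9: 26690 probes by accession and 23 by synonym. The brightest probe stood for a gene, which was tested if well above background on both arrays of a genotype (13582 genes). The genotype comparison used limma 3.58.1 in R 4.3.3 (lmFit, eBayes, no covariate, Benjamini-Hochberg over all tested genes), tested on simulated data first. Log2 differences are Jmjd3-/- minus wild-type with moderated SE.

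The genes and lists were chosen with earlier results of these data known. Named outside the 10 genes are Kdm6b, partners of the VEGF and Tie receptors, and the 3 smallest p of each list of endothelial genes; markers of the tissue check and of other cell types, and genes not tested, are named outside that rule, after their values were seen. The number of arrays limits the precision, and all 4 lay on 1 slide. Alternatives covered background correction, scaling, the filter on dim probes, the probe rule, outlier spots, the deposited table and each array left out.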

Additional observations from a re-analysis of the deposited data

How the results depend on the processing

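No alternative took any of the 10 genes past the threshold, and the lowest adjusted p of any of them was 0.0643, without Jmjd3-/- replicate 9. Emcn, Clec14a, Pecam1 and Sox18 kept a negative difference in all 12 alternatives. Their ranges were −0.53 to −0.35, −0.73 to −0.20, −0.20 to −0.12 and −0.31 to −0.20. Both Jmjd3-/- arrays lay below both wild-type arrays in these genes, so leaving out 1 array could not reverse the sign. The filter settings left the values unchanged, and leaving out outlier spots or using the authors' values barely moved them. Another background correction or scaling could have moved the sign, as could the mean of the probes for Clec14a. These gave −0.46 to −0.43 for Emcn, −0.61 to −0.20 for Clec14a, −0.20 to −0.12 for Pecam1 and −0.27 to −0.26 for Sox18. With arrays left out, the median of the 10 genes ranged from −0.22 to −0.061, the number with no overlap below wild-type from 5 to 8 (33.0% to 47.2% of all genes tested in those settings), and the median of the 84 further genes from −0.15 to −0.016. The other 6 genes changed sign when 1 array was left out, with ranges of −0.46 to 0.26 for Kdr, −0.067 to 0.46 for Flt1, −0.33 to 0.088 for Tek, −0.23 to 0.040 for Tie1, −0.093 to 0.12 for Cdh5 and −0.12 to 0.066 for Robo4; Tek was 0.039 without Jmjd3-/- replicate 1. Cdh5 was also −0.0016 with median scaling and −0.081 with the mean of its probes, whose probes differ in sign, and Robo4 was 5.74e-05 without wild-type replicate 4. The planned normexp setting used mean signals, a column not used here, and median signals took its place. With 1 array left out, the lone array of a genotype is assumed to vary like the others. No paired analysis was possible because the genotypes share no replicate number. Dim probes, such as that of Clec14a, are limited by background.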
